A study of Mus musculus with 23 samples.

Results

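Abra, Ankrd1, Ankrd23, Xirp1, Xirp2, Rcan1, Csrp3, Flnc, Acta1 and Otud1 were followed as a set of genes of mechanical stress in heart muscle cells, 10 of the 49315 genes with a row of counts. They were chosen by name from a list drawn up with earlier results of these data known, which names no single comparison. Their values below are therefore descriptions, and an adjusted p is printed only to place a gene in the fit of all genes. All 10 passed the filter on low counts, which kept 15500 genes.

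The study sequenced RNA of the left ventricle of FVB mice, an inbred strain, in 23 libraries. Mice breathed filtered air, aerosol made from the carrier liquid of an e-cigarette (vehicle), or aerosol of that vehicle with added nicotine, for 4 hours on 5 days of each week over 3 months. Exposure began at an age of 3 weeks or of 3 months, and the labels state no genetic change in any group. At the 3-week start there were 4 air, 3 vehicle and 4 nicotine libraries, and at the 3-month start there were 4 of each. Mice of the later start were also older when the heart was taken, so age at the start and age at the end cannot be told apart. Nothing in the labels says that libraries came from separate animals, so the spread behind the p-values may be partly or wholly technical.

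Heart muscle cells sense stretch at the Z-disc, where actin filaments of neighbouring sarcomeres are anchored, at the elastic protein titin, and at the contacts with the matrix and with neighbouring cells. Load changes the balance of free and polymerised actin, which lets MRTF coactivators enter the nucleus and act with serum response factor (SRF), and it raises calcium, which activates the phosphatase calcineurin and its NFAT targets. TEAD factors, which work with YAP, bind the MCAT element of many muscle genes. Ankrd1 and Acta1 are classical genes of the loaded or hypertrophied ventricle.

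Promoter sequence was at hand from RefSeq (GRCm38.p6) for 8 of the 10 genes, in 12 promoters. The 250 bases before each start were searched on both strands for the CArG box bound by SRF, the MEF2 site, the MCAT element (CATTCC), the NFAT core (GGAAAA) and TATAAA. MCAT stood in 5 of the 12 promoters, 1 each of Ankrd1, Ankrd23, Flnc, Acta1 and Otud1, while 12.6% of all 32851 promoters in the table held it. The CArG box stood in 1 of the 12, of Acta1, against 1.47% of all promoters, and the MEF2 site in 1 of the 12, of Xirp2, against 2.92%. The NFAT core was found in 3 of the 12, of Ankrd23 and Rcan1, against 20.4%, and TATAAA in 1 of the 12, of Acta1, against 12.4%. A match describes these letters and is no evidence of binding. The sequences below show where these elements stand, for genes whose levels are given further on. Each is printed 5′ to 3′ on the strand of its gene and ends at the base before the start, with CArG, MEF2, MCAT and NFAT matches in capitals. The Acta1 window (chr8:123894776-123894925, minus strand) holds the CArG box and an MCAT, the Ankrd1 promoter (chr19:36119845-36120094, minus strand) a pair of MCAT matches in reverse orientation, and the Otud1 window (chr2:19657581-19657730, plus strand) a single MCAT. The Xirp2 window (chr2:67445852-67446001, plus strand) holds the MEF2 site, and the internal promoter of Rcan1 (chr16:92400079-92400328, minus strand) holds NFAT cores in both orientations. Counted from the RefSeq start, the Acta1 CArG box spans bases -73 to -64 and its MCAT -46 to -41. The Otud1 MCAT spans -68 to -63 and the Xirp2 MEF2 site -74 to -65. In the GENCODE annotation Acta1 begins at base 123894751, downstream of its RefSeq start, so the Acta1 positions hold for the RefSeq start only.
Acta1: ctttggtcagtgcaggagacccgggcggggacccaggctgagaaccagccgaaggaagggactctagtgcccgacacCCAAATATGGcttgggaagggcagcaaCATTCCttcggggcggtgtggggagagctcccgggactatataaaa
Ankrd1: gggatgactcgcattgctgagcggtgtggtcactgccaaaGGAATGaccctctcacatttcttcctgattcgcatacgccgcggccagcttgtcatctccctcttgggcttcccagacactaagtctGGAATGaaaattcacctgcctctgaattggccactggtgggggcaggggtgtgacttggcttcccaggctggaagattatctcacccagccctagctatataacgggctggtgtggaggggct
Otud1: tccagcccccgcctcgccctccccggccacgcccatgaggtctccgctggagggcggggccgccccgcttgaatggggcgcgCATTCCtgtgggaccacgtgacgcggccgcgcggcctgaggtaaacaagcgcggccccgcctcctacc
Xirp2: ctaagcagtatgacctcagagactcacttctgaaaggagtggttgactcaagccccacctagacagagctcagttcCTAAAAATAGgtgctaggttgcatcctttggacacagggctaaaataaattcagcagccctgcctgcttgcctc
Rcan1: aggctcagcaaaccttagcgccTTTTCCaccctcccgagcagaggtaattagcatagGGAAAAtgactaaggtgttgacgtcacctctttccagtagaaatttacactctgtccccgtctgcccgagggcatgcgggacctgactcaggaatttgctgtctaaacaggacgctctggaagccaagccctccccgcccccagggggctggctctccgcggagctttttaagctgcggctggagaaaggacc

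Levels are given as CPM, counts scaled to a common library size, with TMM scaling. Per kilobase of exon, the mean level over the 23 libraries was highest for Ankrd1 at 1189 CPM per kb, followed by Csrp3 at 573 and Acta1 at 449. The other 7 lay between 40.2 CPM per kb (Otud1) and 77.6 (Ankrd23). Values of Acta1, Abra and Ankrd23 are the less certain ones. Of the 50-base words in the Acta1 transcripts, 2.02% recur in transcripts of other genes, among them the cytoplasmic actins Actb and Actg1. For Abra this share was 1.06%, with Adam1a and Ankrd6 among the other genes. For Ankrd23 this share was 75.0%, in words that recur in the gene models Gm42417 and Gm38365. Gm42417 lies over 2109 exonic bases of Ankrd23 on the same strand, and 39 reads in all libraries together were given to it. How reads in the shared stretch were assigned is not given in the sources used here. Exons of Xirp2 overlap Gm13601 on the opposite strand by 168 bases, with 25 reads for Gm13601 in all.

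**Figure D1:**
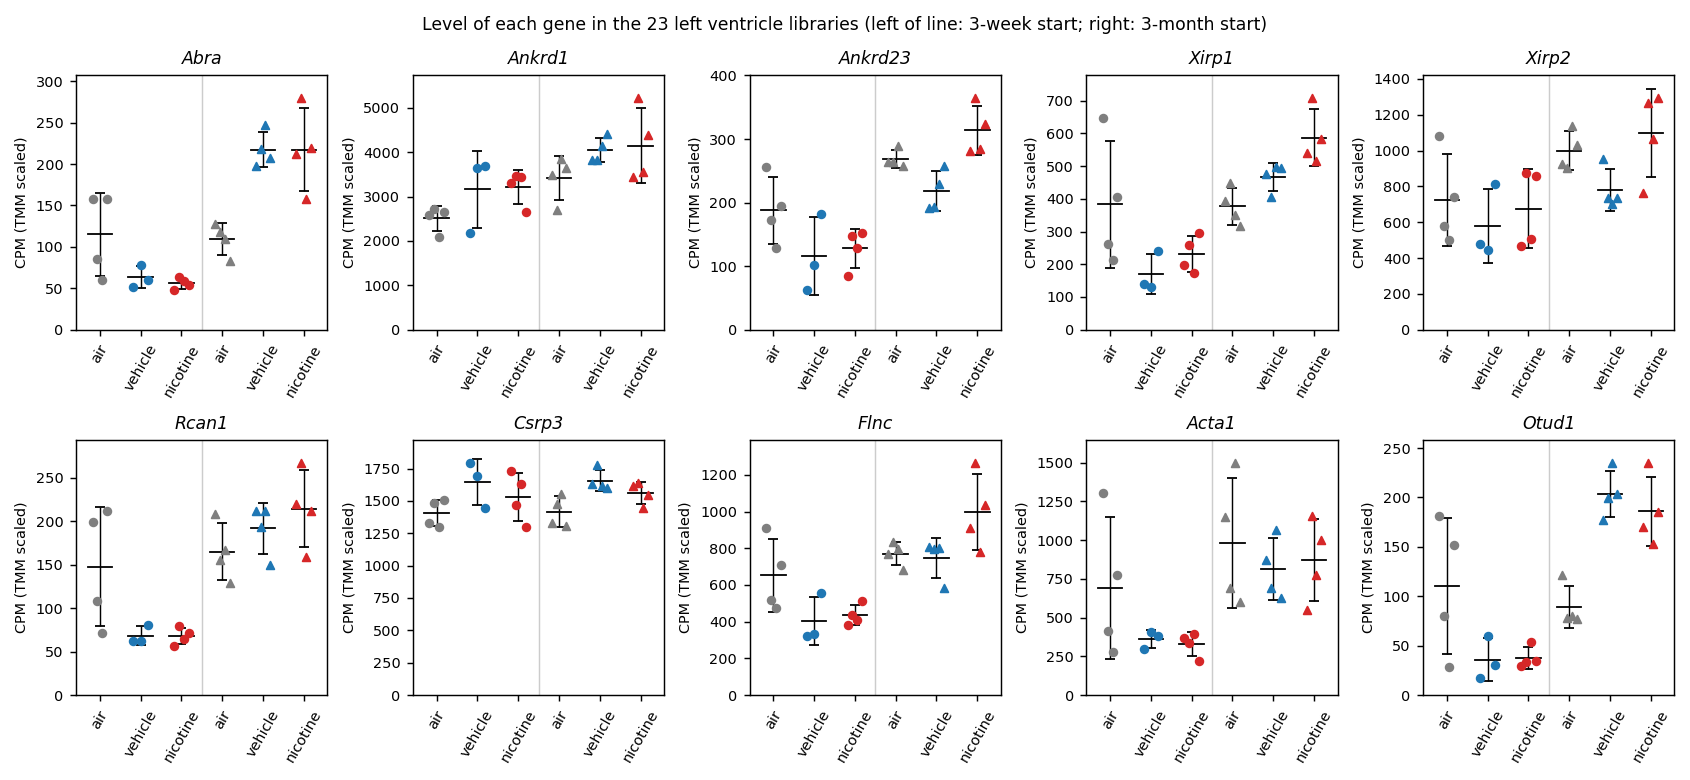
CPM (y axis, TMM scaled, linear from 0) of each of the 10 genes in each library, by treatment (x axis), with the 3-week start to the left of the grey line and the 3-month start to the right. Points are libraries, the wide bar is the mean and the whiskers are 1 SD; Abra, Rcan1 and Otud1 are low in both aerosol groups of the 3-week start and spread widely in the air group of that start.

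Library totals ranged from 12297955 to 17821550 counts. The spread between libraries of a group, as edgeR's common biological coefficient of variation, was 0.234 at the 3-week start and 0.105 at the 3-month start. Summed ventricular cardiomyocyte markers (10 of 10 measured) lay between 82688 and 107113 CPM in every library. Single markers went both ways with vehicle against air at the 3-week start. There 3 were higher and 2 lower (edgeR adjusted p under 0.05), where 9.27% and 6.92% of all genes were. With nicotine against air at that start 1 was lower, where 0.723% of all genes were. Skeletal muscle markers, which matter for Acta1, summed to 1.0 to 4.9 CPM, with 3 of 11 above the count filter; Myog, Myh4 and Pvalb had no read in 18, 16 and 15 of the 23 libraries. Atrial markers (6 of 7 measured) summed to 114 to 577 CPM, with the highest sum in vehicle library 2 of the 3-week start. Blood markers (5 of 6 measured) summed to 2365 CPM in vehicle library 1 of the 3-week start, against 468 and 500 CPM in the other vehicle libraries of that start and 305 to 1410 CPM in the other groups. In bulk tissue, fewer cells of a type and less RNA per cell cannot be told apart.

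The air libraries of the 3-week start did not share a level. Libraries 1 and 5 were high and library 4 was low for 8 of the 10 genes (all but Ankrd1 and Csrp3), and the immediate early genes (19 of 19 measured, transcription factors and feedback genes induced within minutes of a stimulus) moved with them. Their summed level was 2767, 1860, 523 and 3115 CPM in air libraries 1, 2, 4 and 5 of the 3-week start. It ranged from 669 to 2303 CPM in the vehicle group and from 488 to 1030 CPM in the nicotine group of that start. At the 3-month start it was 2425 to 3441 CPM in air, 3520 to 5646 CPM with vehicle and 3272 to 4042 CPM with nicotine. The part of immediate early induction in the results below was not tested. Counts of the 10 genes that rest on 3-week air are given with and without air libraries 1 and 5. Since those libraries were the high ones for most of these same genes, leaving them out moves such differences by construction. Results without them describe how far the values rest on these libraries and are no independent test.

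Abra encodes an actin-binding protein of striated muscle that promotes SRF activity through MRTF. In the 3-week start its level was 158, 85.0, 60.3 and 158 CPM in air libraries 1, 2, 4 and 5, 51.8, 78.5 and 60.3 CPM in vehicle libraries 1, 2 and 4, and 48.2, 63.7, 58.8 and 53.5 CPM in nicotine libraries 2, 3, 5 and 6, an order of replicate number kept below. With exposure from 3 months it was 127, 118, 109 and 82.7 CPM in air, 198, 218, 247 and 207 CPM with vehicle and 212, 280.0, 158 and 219 CPM with nicotine. All 8 aerosol libraries of the 3-month start lay above all air libraries of that start, whereas the aerosol libraries of the 3-week start lay below air libraries 1, 2 and 5 and on either side of air library 4. Group means ran from 56.1 ± 6.69 CPM (SD, n = 4) with nicotine at the 3-week start to 217 ± 21.2 CPM (SD, n = 4) with vehicle at the 3-month start, 3.88 times higher. In the order of the means, only air at the 3-month start and vehicle at the 3-week start were neighbours whose libraries did not overlap.

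Otud1, a deubiquitinase, was again lowest in the aerosol groups of the 3-week start and highest in those of the 3-month start. Its level in the 3-week start was 181, 80.0, 28.6 and 151 CPM in air, 17.6, 59.4 and 30.7 CPM with vehicle and 29.2, 33.5, 53.9 and 34.6 CPM with nicotine. In the 3-month start it was 121, 78.4, 80.2 and 77.1 CPM in air, 178, 199, 235 and 203 CPM with vehicle and 169.7, 235, 153 and 186 CPM with nicotine. The 3-month aerosol libraries were again all above the air libraries of their start, and air library 4 of the 3-week start lay below every nicotine library of that start. The highest group mean was 5.67 times the lowest, the widest range among the 10 genes.

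Rcan1 encodes an inhibitor of calcineurin whose shorter transcript, from the internal promoter shown above, is itself a known NFAT target; the counts are per gene and do not separate the transcripts. In the 3-week start it stood at 199, 108, 71.6 and 211 CPM in air, 62.3, 62.2 and 80.5 CPM with vehicle and 56.9, 79.0, 64.7 and 71.4 CPM with nicotine. In the 3-month start it stood at 208, 155, 167 and 129 CPM in air, 211, 194, 212 and 149.8 CPM with vehicle and 219, 267, 159 and 212 CPM with nicotine. Unlike Abra and Otud1, its 3-month aerosol libraries overlapped with air, and the low groups were the aerosol groups of the 3-week start.

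Ankrd1 and Ankrd23 encode muscle ankyrin repeat proteins that bind the N2A segment of titin and can move to the nucleus. Ankrd1 ranged from 2097 to 2729 CPM in the 3-week air group to 3431 to 5228 CPM in the 3-month nicotine group, and its group means differed by 1.65 times at most. It had its lowest mean in 3-week air, 2513 ± 284 CPM (SD, n = 4), where the aerosol groups of that start had 3164 ± 861 CPM (SD, n = 3) and 3219 ± 378 CPM (SD, n = 4). Ankrd1 was thus higher, not lower, in the 3-week aerosol means, but vehicle library 1 and nicotine library 6 of that start lay inside the air range. Ankrd23 was 256, 173, 128 and 194 CPM in 3-week air, 62.7, 102 and 183 CPM with vehicle and 85.1, 147, 129 and 152 CPM with nicotine. At the later start it was 264, 264, 288 and 257 CPM in air, 192, 194, 229 and 257 CPM with vehicle and 281, 365, 284 and 323 CPM with nicotine. Its vehicle libraries of the 3-month start all lay below the nicotine libraries of that start.

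Xirp1 and Xirp2 encode Xin actin-binding repeat proteins, which bind actin at the intercalated disc, the junction between heart muscle cells. Xirp1 was 648, 262, 214 and 406 CPM in 3-week air, 139, 129.8 and 241 CPM with vehicle and 198, 257, 172 and 295 CPM with nicotine. With exposure from 3 months it was 393, 448, 351 and 316 CPM in air, 475, 406, 498 and 493 CPM with vehicle and 539.6, 709, 516 and 584 CPM with nicotine. The 3-month nicotine libraries lay above all air and all vehicle libraries of that start. Xirp2 showed no such step. Its 3-week groups ranged over 502 to 1079 CPM in air, 445 to 815 CPM with vehicle and 469 to 874 CPM with nicotine, and its 3-month groups over 902 to 1139.7, 703 to 954 and 764 to 1295 CPM in the same order.

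Flnc encodes filamin C, which crosslinks actin at the Z-disc and at cell contacts, and Csrp3 encodes muscle LIM protein, a Z-disc adaptor. Flnc was 910.2, 517, 476 and 711 CPM in 3-week air, 322, 333 and 555 CPM with vehicle and 383, 438, 411 and 514 CPM with nicotine. In the 3-month start Flnc was 770.5, 831, 795 and 684 CPM in air, 808, 794, 804 and 584 CPM with vehicle and 909, 1265, 782 and 1036 CPM with nicotine. Nicotine libraries of the 3-month start tended to the top of this range and overlapped with both other groups. Csrp3 stayed within 1406 ± 103 CPM (SD, n = 4) in 3-week air and 1657 ± 83.0 CPM (SD, n = 4) in 3-month vehicle, with a highest mean 1.18 times the lowest, the narrowest range of the 10.

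Acta1 encodes skeletal muscle alpha-actin, a fetal actin that the adult ventricle re-expresses under load. In the 3-week start it was 1305, 414, 275 and 773 CPM in air, 298, 404 and 382 CPM with vehicle and 369, 335, 396 and 218 CPM with nicotine. In the 3-month start it was 1151, 689, 1498 and 598 CPM in air, 875, 690.4, 1065 and 627 CPM with vehicle and 552, 1154, 776 and 1004 CPM with nicotine. Air libraries 1 and 5 of the 3-week start held the high Acta1 values of that start, and its 3-month groups overlapped throughout. The coefficient of variation of Acta1 between the 3-week air libraries was 66.4%, the highest of any gene and group here.

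**Figure D2:**
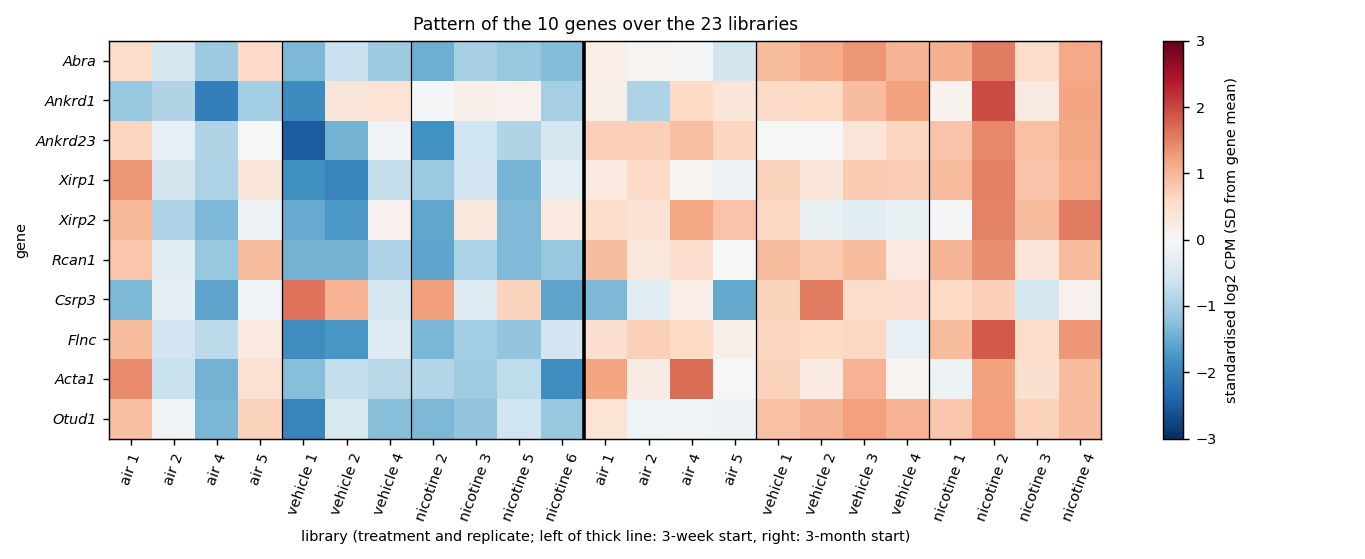
Heat map of log2 CPM of the 10 genes (rows), each standardised over the 23 libraries (columns, by treatment and replicate; colour in SD from the mean of the gene). Averaged over the 10 genes the standardised level is 0.515, -0.507, -1.27 and 0.203 in air libraries 1, 2, 4 and 5 of the 3-week start, between -1.40 and -0.530 in the aerosol libraries of that start and between -0.0344 and 1.43 in the 3-month libraries.

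At the 3-week start, vehicle was compared with air. Rcan1, Xirp1, Otud1, Abra and Flnc were lower with vehicle past the threshold in edgeR's quasi-likelihood test over all genes (adjusted p under 0.05). That is 5 of 10 genes, where 6.92% of all genes tested were lower. Rcan1 differed by -1.11 ± 0.27 on the log2 scale (SE; adjusted p = 0.0221) and Xirp1 by -1.17 ± 0.29 (adjusted p = 0.0224). Otud1 differed by -1.62 ± 0.43 (adjusted p = 0.0266), Abra by -0.86 ± 0.26 (adjusted p = 0.0346) and Flnc by -0.70 ± 0.22 (adjusted p = 0.0378). Acta1 at -0.94 ± 0.40, Ankrd23 at -0.70 ± 0.26 and Xirp2 at -0.32 ± 0.26 did not pass, nor did Ankrd1 at 0.33 ± 0.17 and Csrp3 at 0.22 ± 0.10. The median over the 10 genes was -0.78, and over all genes it was 0.02. No gene of the set had vehicle libraries that all lay above or all lay below the air libraries. The share of all genes with such a separation is not given here for this comparison.

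Without air libraries 1 and 5, none of the 10 passed in the comparison of vehicle with air at the 3-week start. The differences shrank to -0.42 for Rcan1, -0.50 for Xirp1, -0.63 for Otud1, -0.22 for Abra and -0.32 for Flnc, and Acta1 went to 0.04. No gene of all genes tested passed there either. As these genes were high in the air libraries left out, smaller differences follow from that choice and are no separate check. Without vehicle libraries 1 and 2 none passed as well, with Xirp1 at -0.64 and Flnc at -0.21. With single libraries left out in turn, 0 to 7 of the 10 passed, with 0 without air library 1, air library 5 or vehicle library 1 and 1, Otud1, without vehicle library 2. Of all genes, 0% were lower without air library 1 or vehicle library 1, 0.246% without air library 5 and 0.153% without vehicle library 2.

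Nicotine with vehicle was compared with air in the same way, against the same air libraries. Rcan1 differed by -1.12 ± 0.25 on the log2 scale (SE; edgeR adjusted p = 0.0394) and Abra by -1.04 ± 0.24 (adjusted p = 0.0446), both lower with nicotine, so 2 of 10 passed where 0.723% of all genes were lower. Otud1 at -1.55 ± 0.39 (adjusted p = 0.0624), Acta1 at -1.07 ± 0.37 (adjusted p = 0.188) and Xirp1 at -0.73 ± 0.26 (adjusted p = 0.21) did not pass. Flnc at -0.58 ± 0.20, Ankrd23 at -0.55 ± 0.24, Xirp2 at -0.10 ± 0.24, Csrp3 at 0.12 ± 0.10 and Ankrd1 at 0.36 ± 0.16 did not pass either. The authors' deposited table of this comparison, by their own test, also holds Rcan1 at -1.13 (adjusted p = 0.0356) and Abra at -1.05 (adjusted p = 0.038) below 0.05, with 0.69% of its genes lower. Without air libraries 1 and 5 the differences were -0.43 for Rcan1, -0.40 for Abra and -0.55 for Otud1, and none passed. Leaving out any single library of either group other than air libraries 2 and 4 also ended both calls. In those fits 0.00646% to 0.168% of all genes were lower. Fitted on the 3-week libraries alone, neither comparison with air had a call among the 10 or among all genes.

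Nicotine and vehicle did not differ past the threshold for any of the 10 at the 3-week start, where 0% of all genes passed. At an unadjusted p under 0.05 edgeR found 0 of the 10, against 19.3% of all genes, and DESeq2 called 0 of the 10, against 2.82% of the 9227 genes it tested. The widest difference was that of Xirp1, 0.44 ± 0.28, and the other 9 lay between -0.18 (Abra) and 0.22 (Xirp2). The SE of these differences ran up to 0.42 (Otud1), so differences of that size were within the error.

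**Figure D3:**
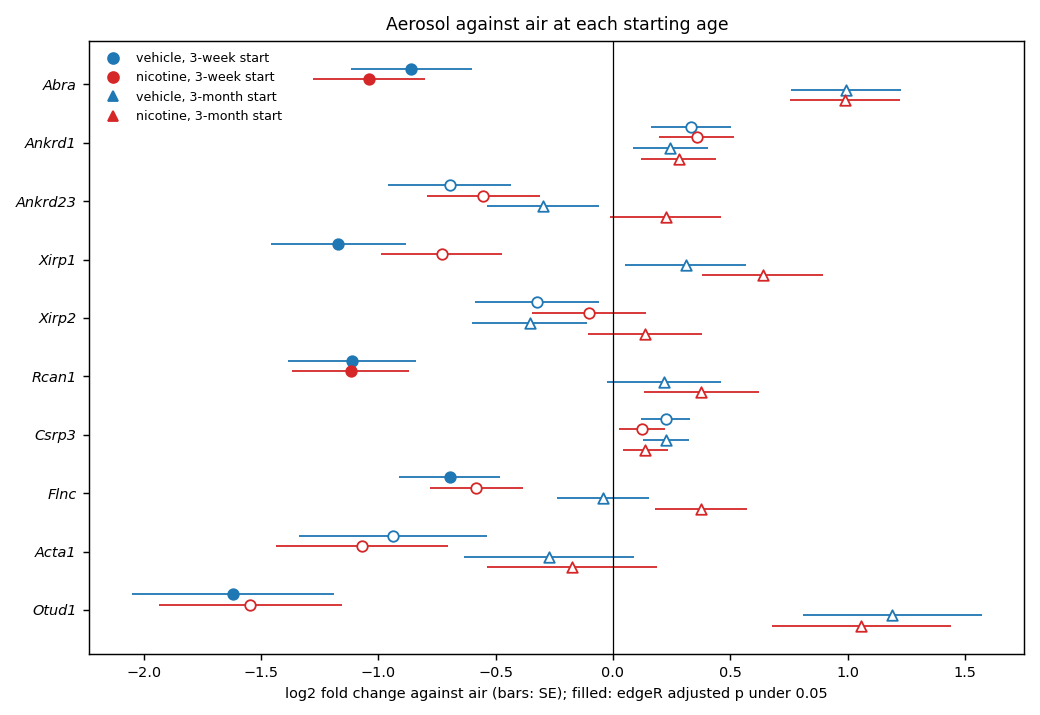
Log2 fold change against air of the same start (x axis, bars are SE) for each gene (y axis) with vehicle (blue) and nicotine (red) at the 3-week (circles) and 3-month start (triangles). Filled symbols have an edgeR adjusted p under 0.05 in the fit of all 23 libraries; Abra and Otud1 lie between -1.62 and -0.86 at the 3-week start and between 0.99 and 1.19 at the 3-month start.

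At the 3-month start, Abra, Otud1 and Xirp1 had the highest fold changes with nicotine against air. Abra differed by 0.99 ± 0.23 on the log2 scale, Otud1 by 1.06 ± 0.38 and Xirp1 by 0.64 ± 0.26 (SE; edgeR adjusted p = 1 for each). The other 7 lay between -0.17 (Acta1) and 0.38 (Rcan1). None of the 10 passed, as 0% of all genes did, and 3 of 10 had an unadjusted p under 0.05, against 2.63% of all genes. DESeq2 on the 23 libraries called 0 of the 10 and 1 of 30552 genes. In Abra, Otud1 and Xirp1 every nicotine library lay above every air library, 3 of 10, against 1.99% of all genes. The authors' deposited table, which compares these same groups, holds Otud1 at 1.05 (adjusted p = 1.63e-07), Abra at 0.98 (adjusted p = 1.53e-06) and Xirp1 at 0.63 (adjusted p = 0.000178) as higher, where 0.223% of its genes were higher. Fitted on the 3-month libraries alone, edgeR gave each of the 3 genes an adjusted p of 0.0796.

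Vehicle against air at the 3-month start gave Abra 0.99 ± 0.23 (edgeR adjusted p = 0.168), Otud1 1.19 ± 0.38 (adjusted p = 0.286) and Csrp3 0.23 ± 0.10 (adjusted p = 0.332) on the log2 scale. Again 0 of 10 passed, with 0% of all genes, while 3 of 10 had an unadjusted p under 0.05, against 14.2% of all genes. DESeq2 called 1, Abra, where it called 28 genes higher and 54 lower of 13965 tested. In Abra, Otud1 and Csrp3 all vehicle libraries lay above all air libraries, against 8.52% of all genes. On the 3-month libraries alone the 3 genes passed, with Otud1 at 1.20 (adjusted p = 0.00138), Abra at 1.0 (adjusted p = 0.00259) and Csrp3 at 0.23 (adjusted p = 0.018), where 7.64% of all genes were higher. On the compared groups alone 6 of 10 passed, where 18.4% of all genes did so in either direction. The additional 3 were Xirp1 at 0.32 (adjusted p = 0.045), Ankrd23 at -0.29 (adjusted p = 0.0419) and Xirp2 at -0.35 (adjusted p = 0.03).

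Against vehicle at the 3-month start, nicotine gave Ankrd23 0.52 ± 0.24, Xirp2 0.49 ± 0.24, Flnc 0.42 ± 0.20 and Xirp1 0.33 ± 0.26 on the log2 scale. Abra, high in both aerosol groups, was at 0.00 ± 0.23 and Otud1 at -0.13 ± 0.38. None of the 10 passed in the fit of all libraries, where 0% of all genes passed. An unadjusted p under 0.05 was reached by 2 of 10, against 12.2% of all genes, and DESeq2 called 0 of the 10, against 0.118% of the 11003 genes it tested. Ankrd23 and Xirp1 had all nicotine libraries above all vehicle libraries, 2 of 10, against 12.2% of all genes. On the 3-month libraries alone Ankrd23 passed at 0.50 (edgeR adjusted p = 0.0045), 1 of 10, where 10.2% of all genes were higher.

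The 3-month start was compared with the 3-week start within each treatment; for vehicle and nicotine this comparison was added after the levels had been seen. In air, none of the 10 passed, where 0.00645% of all genes passed, 1 gene; 2 of 10, Ankrd1 and Ankrd23, had an unadjusted p under 0.05, against 9.08% of all genes, and DESeq2 called 0 of the 10, against 0.199% of the 18111 genes it tested. Ankrd23 alone had all 3-month air libraries above all 3-week ones, against 2.15% of all genes. Without air libraries 1 and 5 of the 3-week start, Acta1 rose by 1.51 (edgeR adjusted p = 0.0184) and Rcan1 by 0.87 (adjusted p = 0.0288), 2 of 10. Of all 15817 genes tested there, 275 were higher (1.74%) and 574 lower. The libraries left out held the high Acta1 and Rcan1 values of 3-week air. A larger rise therefore follows from the choice of libraries, and these adjusted p are no test of it.

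With vehicle, 6 of 10 genes were higher in the later start, where 5.09% of all genes were higher. They were Otud1 at 2.5 ± 0.45 on the log2 scale (SE; edgeR adjusted p = 0.00477), Abra at 1.78 ± 0.27 (adjusted p = 0.00372), Rcan1 at 1.49 ± 0.28 (adjusted p = 0.00536), Xirp1 at 1.46 ± 0.29 (adjusted p = 0.00697), Ankrd23 at 0.91 ± 0.26 (adjusted p = 0.0301) and Flnc at 0.89 ± 0.22 (adjusted p = 0.0154). Acta1 at 1.17 ± 0.40 (adjusted p = 0.0576) did not pass. In 8 genes, these 7 and Ankrd1, all later-start libraries lay above all earlier-start ones, against 8.71% of all genes. The count fell to 0 without vehicle library 1 of the 3-week start, the library with 2365 CPM of blood markers. Calls over all genes were lost there too, with 1 of 15707 genes higher (0.00637%), and Otud1 was still at 2.20 and Abra at 1.67. Without vehicle libraries 1 and 2 of that start, which left a single vehicle library, Ankrd23 was at 0.24 and Flnc at 0.41. The part of blood RNA in the result was not tested.

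With nicotine, 7 of 10 were higher in the later start, where 5.03% of all genes were higher. Otud1 differed by 2.30 ± 0.40 (edgeR adjusted p = 0.00153), Abra by 1.95 ± 0.24 (adjusted p = 0.000305) and Rcan1 by 1.65 ± 0.25 (adjusted p = 0.000751). Acta1 at 1.40 ± 0.37 (adjusted p = 0.0208), Xirp1 at 1.35 ± 0.26 (adjusted p = 0.00336), Ankrd23 at 1.29 ± 0.24 (adjusted p = 0.00265) and Flnc at 1.19 ± 0.20 (adjusted p = 0.00115) passed as well. Xirp2 at 0.70 ± 0.24 and Ankrd1 at 0.37 ± 0.16 did not, and Csrp3 was at 0.03 ± 0.10. The libraries of the 7 genes did not overlap between the starts, against 9.58% of all genes. Leaving out single libraries kept the count between 6 and 8. With single nicotine libraries of the 3-week start left out, 2.64% to 6.08% of all genes were higher. Immediate early genes were higher in the same comparison, 15 of 19 past the threshold, among them Atf3 at 5.09 ± 0.74 and Nr4a3 at 6.04 ± 0.92 (edgeR adjusted p = 0.000684 and 0.000884). Blood markers went the other way, 5 of 5 measured lower past the threshold with a median of -1.41, and summed to 1089 to 1410 CPM at the 3-week and 409 to 553 CPM at the 3-month start. Of 6 smooth muscle markers, 1, Lmod1, was lower at -1.50 ± 0.34 and the median was -0.76, with sums of 331 to 878 and 353 to 526 CPM. The part of these 3 lists in the result was not tested.

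**Figure D4:**
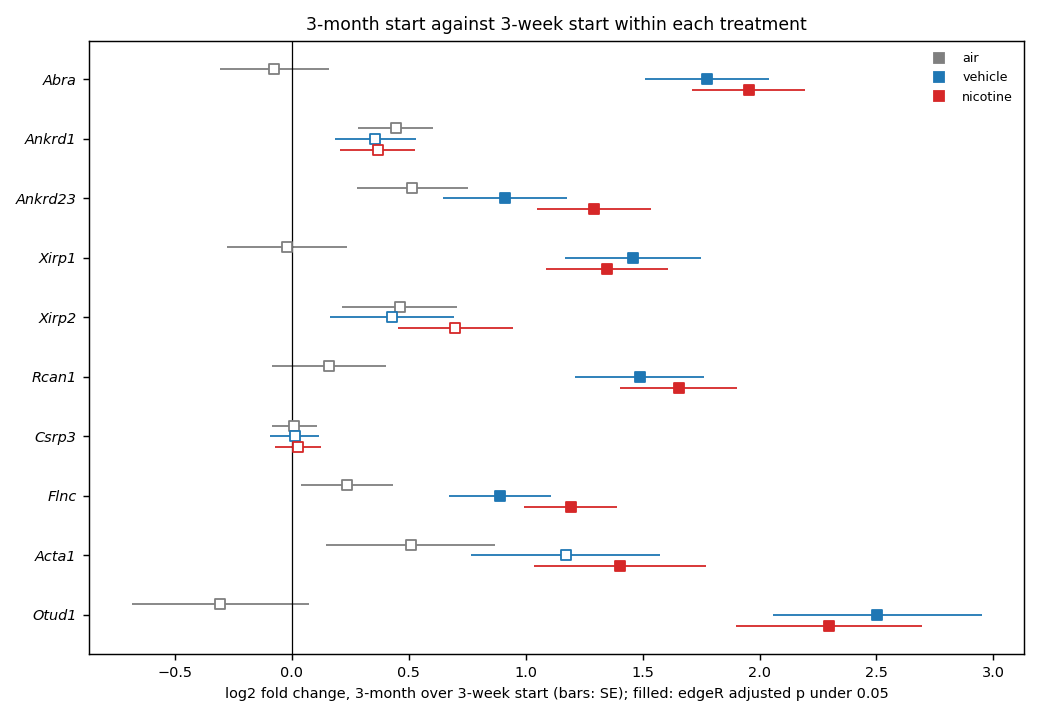
Log2 fold change of the 3-month over the 3-week start (x axis, bars are SE) for each gene (y axis) in air (grey), vehicle (blue) and nicotine (red); filled symbols have an edgeR adjusted p under 0.05. The aerosol symbols of Abra, Otud1, Rcan1 and Xirp1 lie at 1.35 or above while their air symbols lie between -0.31 and 0.16.

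Whether the effect of an aerosol differed between the starts was tested as the 3-week effect minus the 3-month effect, which uses all 4 groups. For nicotine, Abra differed by -2.03 ± 0.33 on the log2 scale (SE; edgeR adjusted p = 0.0213), 1 of 10, where 0.103% of all genes were lower. Otud1 at -2.60 ± 0.55 (adjusted p = 0.0501), Rcan1 at -1.49 ± 0.35 (adjusted p = 0.0719) and Xirp1 at -1.37 ± 0.37 (adjusted p = 0.125) did not pass. Without air libraries 1 and 5 of the 3-week start Abra was at -1.37 (adjusted p = 0.0968), and leaving out nicotine library 3 of the 3-week start, air library 4 or 5 or nicotine library 2 or 4 of the 3-month start also ended the call. For vehicle, Otud1 was at -2.81 ± 0.58 (adjusted p = 0.167), Abra at -1.85 ± 0.35 (adjusted p = 0.136) and Xirp1 at -1.48 ± 0.38 (adjusted p = 0.205). None of the 10 passed for vehicle, where 0% of all genes did, and 5 of 10 had an unadjusted p under 0.05, against 12% of all genes. DESeq2 called 4 of the 10, where it called 11 genes higher and 74 lower of 6857 tested. Without air libraries 1 and 5 the difference of vehicle effects was -1.82 for Otud1, -1.21 for Abra and -0.82 for Xirp1, and 0 of the 10 and 0 of all genes passed.

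Across the 23 libraries the genes moved together to different degrees. These correlations are over libraries that share groups and scaling, and they are descriptions. Log2 CPM of Abra and Otud1 had a Pearson r of 0.962, and that of Xirp1 and Flnc 0.943. Csrp3 had r between -0.364 and 0.331 with the other 9. With group means removed, r was 0.876 for Abra and Otud1 and 0.850 for Xirp1 and Flnc.

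Among 12147 genes outside the set, the gene nearest to Abra was Atf3, a stress-induced transcription factor (r = 0.959), which was also nearest to Otud1 (r = 0.966). Rcan1 lay nearest to the nuclear receptor gene Nr4a3 (r = 0.970) and Acta1 to Arc, an immediate early gene (r = 0.909). Xirp1 lay nearest to Bag2, a co-chaperone (r = 0.944), Ankrd23 to the thrombin receptor gene F2r (r = 0.942), Flnc to Dusp27 (r = 0.954) and Xirp2 to Camta1 (r = 0.966). Ankrd1 had the lowest best match, Myl12a, a myosin regulatory light chain (r = 0.798), and Csrp3 was nearest to Mgst3 (r = 0.904). To the mean of the 10 standardised genes, Trib1 (r = 0.955), Aqp8 (r = 0.943), Errfi1 (r = 0.943), Mafk (r = 0.940) and Adamts1 (r = 0.940) came nearest, each over 23 libraries.

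Other genes of the pathways were read from fixed lists in the same fits. Of 20 SRF, MRTF and YAP genes, 6 were lower with vehicle than with air at the 3-week start, where 6.92% of all genes were, among them tropomyosin Tpm4 at -0.75 ± 0.20 (edgeR adjusted p = 0.0269) and Srf itself at -0.68 ± 0.19 (adjusted p = 0.0284). With nicotine 1 of the 20, Tpm4, was lower, where 0.723% of all genes were, at -0.98 ± 0.19 (adjusted p = 0.0202). The median of the list was -0.50 with vehicle and -0.37 with nicotine, and over all genes it was 0.02 in each. Between the starts 7 of the 20 were higher in the later start with vehicle and 7 with nicotine, against 5.09% and 5.03% of all genes, and Srf was at 0.76 ± 0.19 and 0.88 ± 0.17 (edgeR adjusted p = 0.0161 and 0.00341).

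Of 16 calcineurin and NFAT genes, 1 was lower with vehicle at the 3-week start, where 6.92% of all genes were: Mef2d, a transcription factor of muscle, at -0.41 ± 0.12 (edgeR adjusted p = 0.033), and none passed with nicotine. Ppp3cc, a calcineurin catalytic subunit, was higher in the later start with vehicle at 0.39 ± 0.12 (adjusted p = 0.0443), 1 of 16, where 5.09% of all genes were. The median of this list was -0.02 with vehicle and -0.01 with nicotine against air at the 3-week start, unlike that of the 10 genes.

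Among 21 measured of 22 Z-disc and titin genes, 5 were lower and 2 higher with vehicle than with air at the 3-week start, where 6.92% of all genes were lower and 9.27% higher. Nexn, an actin-binding Z-disc protein, was at 0.81 ± 0.18 and Tcap, the titin cap, at 0.75 ± 0.19 (edgeR adjusted p = 0.0187 and 0.0239). Actn2, the Z-disc crosslinker alpha-actinin, was at -0.49 ± 0.14 (adjusted p = 0.0296). Casq2 was at -0.69 ± 0.19 (adjusted p = 0.0279). It stood on this list although it encodes a calcium-binding protein of the sarcoplasmic reticulum and no Z-disc or titin protein. Of 17 measured of 18 costamere and integrin genes, 6 were lower, against the same 6.92%, among them the integrin-linked kinase Ilk at -0.58 ± 0.16 and the stretch-activated channel Piezo1 at -0.55 ± 0.16 (edgeR adjusted p = 0.0274 and 0.0336). No gene of either list passed with nicotine against air at the 3-week start, and none of these lists passed in any comparison within the 3-month start in the fit of all 23 libraries. Without air libraries 1 and 5 no gene of any list passed in the comparison of vehicle with air. Nppb, the stress hormone of the ventricle, was higher in the later start with nicotine at 1.58 ± 0.25 (edgeR adjusted p = 0.000931).

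Immediate early genes were lower at the 3-week start, 5 of 19 with vehicle and 7 of 19 with nicotine against air, where 6.92% and 0.723% of all genes were lower. Nr4a3 was at -5.20 ± 1.0 with vehicle (edgeR adjusted p = 0.0141) and at -5.50 ± 0.91 with nicotine (adjusted p = 0.0121). In the difference of nicotine effects 2 of 19 were lower beside Abra, where 0.103% of all genes were, Nr4a3 at -6.09 ± 1.13 and Atf3 at -4.96 ± 0.94 (adjusted p = 0.0302 for each).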

How the data were processed

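Whole-number gene counts without normalization were deposited by the authors for 49315 genes in 23 libraries of left ventricle RNA. The submitters' processing notes name Trimmomatic 0.36, STAR 2.5.2b, featureCounts (Subread 1.5.2) and DESeq2. What genome build, annotation and strand setting the counting used is not given in the sources used here. For nicotine against air at each start, the authors deposited log2 fold changes and p-values, beside a signal per library that equals the count over a size factor. This deposited signal served only to check which library is which. 0 columns of counts matched no sample.

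The counts were fitted with edgeR 4.0.16 in R 4.3.3. After filterByExpr (minimum count 10) and TMM scaling, a robust quasi-likelihood fit of 6 groups over 23 libraries left 17 residual degrees of freedom. Benjamini-Hochberg adjustment ran over 15500 genes, with a threshold of 0.05. Levels are CPM, with mean ± SD. Log2 fold changes carry an SE derived from the F statistic. Tests were two-sided. The fit was tested on simulated data.

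Alternatives were RLE scaling, no filter, DESeq2 1.42.0, other sets of libraries, a length offset from exonic lengths of GENCODE vM21, and a replicate block. The members and gene lists were chosen with earlier results of these data known. All 10 members were read in every comparison, and those not named there are given by range or are in the plots. Named besides were from each list at most 4 genes past the threshold, taken by smallest p, and the genes nearest by Pearson r of log2 CPM (mean log2 CPM of at least 1). A deposited table of gene ontology terms was not used here, since it names no comparison. Promoters are from RefSeq, and members were matched by symbol.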

Additional observations from a re-analysis of the deposited data

Results flagged for a closer look

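In the 3-month groups, 4 gene levels had a library far from the other 3 of its group (gap over range above Dixon's critical value for 4 samples). Xirp2 was 954 CPM in vehicle library 1, above the other vehicle libraries. Csrp3 was 1780.0 CPM in vehicle library 2, above its group. Flnc was 584 CPM in vehicle library 4, below its group. Otud1 was 121 CPM in air library 1, above its group. Of 50 groups of gene levels tested, chance flags about 1 in 20.

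Abra had a lower mean with nicotine than with air at the 3-week start and a higher one at the 3-month start. In the fit of all libraries, nicotine against air differed by -2.03 on the log2 scale (3-week minus 3-month start, edgeR adjusted p = 0.0213). For vehicle against air the same difference was -1.85 (adjusted p = 0.136). Nicotine against vehicle was at -0.18 at the 3-week start and -0.001 at the 3-month start. The nicotine call ended with the replicate block. It also ended without the high air libraries of the 3-week start and without some single libraries, as given above.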

How the results depend on the processing

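Counts of the 10 genes past the threshold changed with the libraries that share a fit. Against air at the 3-week start, nicotine called 2 and vehicle 5. Without the low-count filter these became 0 and 3, where 0.232% and 2% of all genes were lower. On libraries of that start alone, on the compared groups alone, with the replicate block or without air libraries 1 and 5, both were 0, and vehicle was 0 without vehicle libraries 1 and 2. Leaving out single libraries gave 0 to 5 for nicotine, 0 to 7 for vehicle and 0 to 1 for nicotine against vehicle. Where nicotine called 5, without air library 4, 2.16% of all genes were lower. Without vehicle library 4 of the 3-week start, 23.2% of all genes were lower with vehicle than with air, 30.3% differed between nicotine and vehicle, 5.7% were lower in the difference of vehicle effects and 20.5% were higher in the later start with vehicle. At the 3-month start, vehicle against air went from 0 to 1 with DESeq2, 3 on libraries of that start and 6 on the compared groups, and nicotine against vehicle from 0 to 1 on either set. In either direction 0.587%, 18.7% and 18.4% of all genes passed there for vehicle against air, and 16.6% and 15.8% for nicotine against vehicle. The 3-month against the 3-week start in air went from 0 to 2 without air libraries 1 and 5, where 1.74% of all genes were higher. The difference of nicotine effects went from 1 to 2 with RLE scaling or the length offset, 5 with DESeq2, 0 with the replicate block and 0 without air libraries 1 and 5, with 0 to 4 over single libraries left out. Of all genes, 0.187% were lower with RLE scaling, 0.239% with the length offset, 1.21% with DESeq2 and 1.14% without air library 4 of the 3-week start. The difference of vehicle effects went from 0 to 4 with DESeq2, where 1.08% of all genes were lower, and 0 to 5 over single libraries. The later against the earlier start with vehicle called 6, and 0 to 8 over single libraries. It was 0 without vehicle library 1 of the 3-week start, where 0.00637% of all genes were higher.

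Of 1810 values of single genes under alternatives, 94 had the other sign, and 0 of these passed the threshold in either fit. Whether the replicate number marks a pairing cannot be told from so few pairs. Libraries with the same number deviated together (r over 0.1) in 3 of 6 pairs at the 3-week start and 0 of 10 at the 3-month start. At the 3-week start r was -0.37 to 0.283 in these pairs and -0.593 to 0.561 in the 34 other pairs. At the 3-month start it was -0.308 to 0.0562, and -0.309 to 0.387 in the 38 other pairs. All 10 genes had reads in every library. The spread between 3-week libraries is a limit, and its size was not compared with that of depth. Gene length is another. At the 3-week start rho was 0.267, -0.064, -0.0402 and -0.0127 in air libraries 1, 2, 4 and 5. It was -0.211, -0.277 and 0.186 in vehicle libraries 1, 2 and 4, and -0.346, 0.108, -0.296 and 0.211 in nicotine libraries 2, 3, 5 and 6. At the 3-month start rho went with treatment. It was 0.0901 to 0.305 in air, -0.244 to -0.111 with vehicle and 0.000844 to 0.324 with nicotine. Comparisons with vehicle at that start therefore also compare libraries that differ in this trend. The part of gene length in the calls was not tested apart from the fit with a length offset.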
